A study of Mus musculus with 6 samples.

Results

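The genes described here were 44 regulators of the cell cycle and of mitosis, taken by symbol from a list of S phase, G2 and M phase genes. They comprised 9 cyclins, 4 cyclin-dependent kinases, 5 genes of the Cdc25 and Wee1 families, 5 mitotic kinases, 5 spindle checkpoint genes, 3 activators or inhibitors of the anaphase-promoting complex, 9 replication licensing genes, the pair Pcna and Top2a, and the pair Kif11 and Birc5. All 44 were found among the 48967 genes with exonic parts in the deposited counts, and all 44 were among the 16020 genes that passed the filter on low counts.

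RNA of mouse embryos at the 2-cell stage was sequenced in 6 libraries, of which 3 were control and 3 delipidated, and each library was made from a pool of 3 embryos. All embryos were wild type (wt) of the strain F1 (C57Bl/10 X CBA/H), and both groups were kept in fatty acid-free KSOM from 0.5 dpc to 2.0 dpc. Control embryos were cultured in vitro without delipidation. For delipidated embryos, zygotes were exposed to cytochalasin B at 50 µg/mL, spun at 4200 × g and, after addition of sucrose, at 9500 × g, and the lipid droplets were then drawn into a pipette through an opening in the zona pellucida. The methods describe neither these spins nor cytochalasin B for controls, so that lipid removal and handling cannot be told apart. Zygotes of several females were mixed before allocation, and embryos of each group were then split into its 3 pools. The p-values measure the spread between such pools, with a variance estimate that edgeR shares in part between genes. They do not measure the spread between separate experiments.

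The total of counts assigned to genes came to 12164963, 16165958 and 12980787 for control replicates 1 to 3 and to 20059460, 16332103 and 14683741 for delipidated replicates 1 to 3, and values per library are given in this order throughout. Delipidated replicate 1 was thus the deepest library, although it had the lowest number of genes with at least 1 count, 17091, against 19408 and 20158 in the other delipidated libraries and 22855, 22437 and 20582 in the controls. The expected stage was checked with marker genes. Of 14 genes of the 2-cell stage, such as the Zscan4 family, all 14 were counted, with Zfp352 or Usp17lc the most abundant in each library, and they summed to 550, 242 and 512 CPM (counts scaled to a common library size with TMM factors) in the controls and 350, 427 and 597 CPM in the delipidated libraries. Control replicate 2 was the lowest library for these markers, and the groups overlapped.

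Progress through the cell cycle is driven by cyclin-dependent kinases, whose activity depends on bound cyclins, on inhibitory phosphorylation added by Wee1 kinases and removed by Cdc25 phosphatases, and on timed destruction of cyclins by the anaphase-promoting complex. Before each S phase, replication origins are licensed by loading of the MCM helicase, and before each anaphase the spindle checkpoint waits until all chromosomes are attached. The mouse zygote inherits many of these transcripts from the oocyte, and the second cell cycle, in which the embryonic genome becomes broadly active, is known for its long G2 phase.

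Levels between genes were compared per length, as CPM per kb of exonic parts, and averaged over the 6 libraries. These levels ranged from 249 CPM per kb for Wee2 to 0.0964 CPM per kb for Ccnd2. The median level of the 44 genes was 33.8 CPM per kb, against 3.47 CPM per kb over all genes tested, and 39 of the 44 lay above the latter value. A level over 50 CPM per kb was found for 15 genes, and a level under 5 CPM per kb for 6, which were Ccnd1, Ccnd2, Ccnd3, Ccnb3, Cdk4 and Cdk6. Apart from Ccnb3, a cyclin known from meiosis, the low genes over all parts were the D-type cyclins and their kinase partners, which act in G1.

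The levels per kb of the 3 highest genes overlapped between libraries, with 173 to 309 for Wee2, 171 to 263 for Ccne1 and 147 to 224 for Gmnn. They were followed by Ccnb1 with 90.0 to 132, Ccna2 with 85.7 to 122 and Cdk1 with 71.8 to 94.6 CPM per kb. No library of Ccnb1, Ccna2 or Cdk1 reached the lowest library of the 3 genes above them. This order depended on the parts used for length. When levels were taken over parts that overlap coding sequence alone, a scale chosen after the data were seen, Ccnb1 was the highest at 284 CPM per kb, before Wee2 at 274, Ccne1 at 265 and Gmnn at 262, and 8 of the 10 highest genes were the same. For the checkpoint gene Mad2l1 the scales differed widely, with 18.8 CPM per kb over all parts and 158 CPM per kb over coding parts. Ccnd3 and Cdk4, under 5 CPM per kb over all parts, were at 17.3 and 6.56 CPM per kb over coding parts. On that scale Ccnd3 lay above Ccnb2, Wee1 and Bub3.

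**Figure D1:**
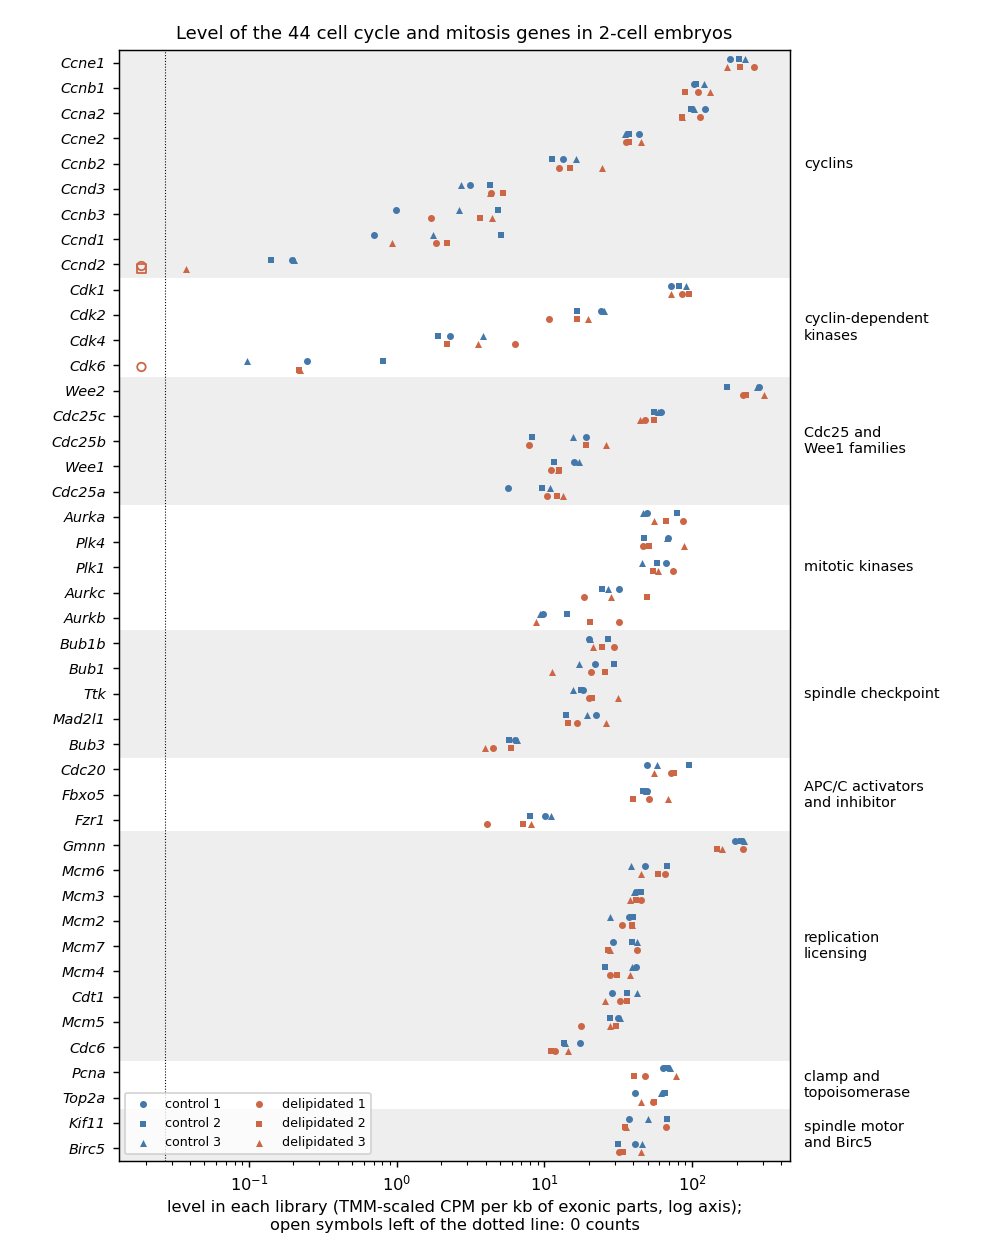
Level of each of the 44 genes in each library, as TMM-scaled CPM per kb of exonic parts on a log axis, in order of role and level, with control libraries in blue, delipidated libraries in orange, the symbol shape giving the replicate and open symbols left of the dotted line marking 0 counts. Wee2, Ccne1 and Gmnn lie at the upper end, Ccnd2 and Cdk6 at the lower end, and the libraries of both groups intermingle for most genes.

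Delipidated and control embryos were compared to ask which transcripts differ at the 2-cell stage after removal of lipid droplets from the zygote. By edgeR's quasi-likelihood test at a Benjamini-Hochberg adjusted p under 0.05 and a log2 fold change beyond 1, 0 of the 44 genes were called higher and 0 lower, as were 0% and 0% of all genes tested. DESeq2's Wald test, run without the filter, also called 0 of the 44, against 9 higher (0.0291%) and 40 lower (0.129%) of the 30967 genes with a count. An unadjusted p under 0.05 was reached by 0 genes in either direction with edgeR, against 1.15% of all genes tested that were higher and 1.74% that were lower, and with DESeq2 by 2 of the 44, Aurkb higher and Ccnd2 lower, against 1.41% higher and 2.92% lower of all genes with a count. All 3 delipidated libraries lay above all 3 controls for 2 genes, Ccnd3 and Ttk, against 3.81% of all genes tested, and below them for 1 gene, Ccnd2, against 5.05%. Ccnd2 passed the filter through its control libraries alone. With 3 libraries in each group an exact two-sided permutation test cannot give a p under 0.1.

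Log2 fold changes, given as delipidated over control throughout, were positive for 22 of the 44 genes and negative for 22, with a median of 0.0022 against −0.00073 over all genes tested. For 29 of the 44 genes (65.9%) the 95% interval of the log2 fold change lay between −1 and 1, which held for 24.9% of all genes tested. The 44 genes also had the higher median level, 33.8 against 3.47 CPM per kb. No such share was taken over genes of like level, so the difference is not read as a result about the 44 genes. As the libraries were made from whole embryos, fewer cells in a given phase and less RNA in each cell cannot be told apart.

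**Figure D2:**
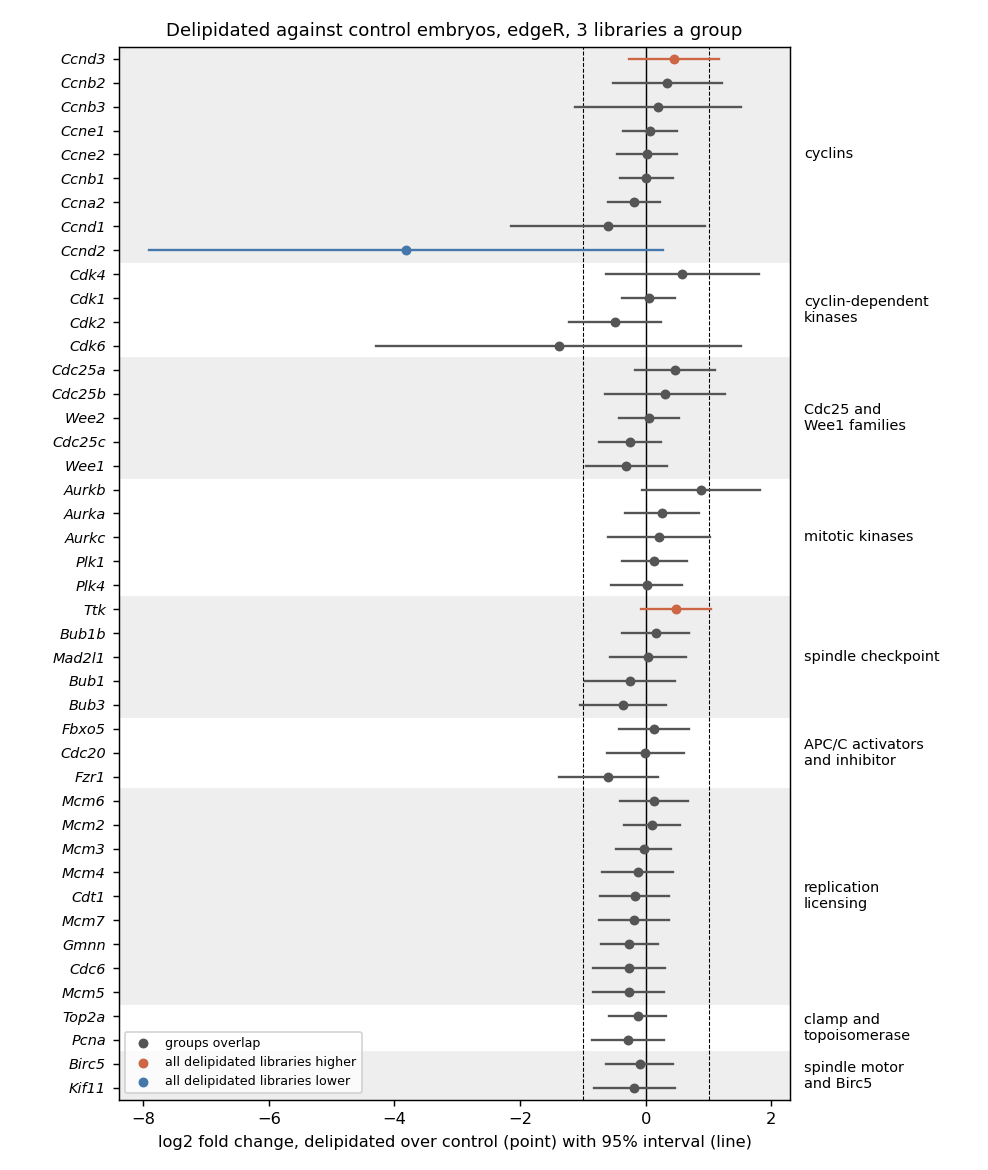
Log2 fold change of each of the 44 genes, delipidated over control (points), with its 95% interval (lines) from edgeR with 3 libraries in each group, in order of role, with dashed lines at −1 and 1 and colour where all delipidated libraries lay above (orange) or below (blue) the controls. All 44 intervals include 0; Ccnd2 has the lowest value, −3.81, with the widest interval, and Aurkb the highest, 0.87.

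Among the 9 cyclins, Ccne1, which with Cdk2 starts S phase, had the highest level per kb over all parts. Its values were 484, 556 and 604 CPM in the control and 699, 561 and 456 CPM in the delipidated libraries. Delipidated replicates 1 and 3 were its highest and its lowest library, so that the controls lay within the range of the delipidated group. The log2 fold change was 0.06 ± 0.20, where ± gives the standard error (SE) over 3 libraries in each group. The related Ccne2 was lower per kb than Ccne1 in all 6 libraries, by a factor of 3.78 to 7.34. Ccna2 and Ccnb1, the partners of Cdk1 and Cdk2 in S phase, G2 and mitosis, had log2 fold changes of −0.18 and 0.01, each with a standard error of 0.19. Per kb over all parts, Ccnb1 exceeded Ccnb2 5.37-fold to 9.49-fold and Ccnb3 21.8-fold to 102.5-fold across the libraries. Over coding parts it exceeded Ccnb2 13.8-fold to 24.8-fold and Ccnb3 63.8-fold to 254.6-fold. Ccnb3 was the more variable of the pair, with 4.56 to 22.3 CPM in the controls and 7.80 to 20.1 CPM in the delipidated libraries.

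The D-type cyclins, which bind Cdk4 and Cdk6 in response to growth signals, held both cyclins whose groups did not overlap. Ccnd3 had 27.6, 37.5 and 23.9 CPM in the control and 38.0, 45.9 and 37.8 CPM in the delipidated libraries. The groups did not overlap, but the highest control, replicate 2, came close to the lowest delipidated library, replicate 3, and 14.3% of the counts of Ccnd3 lay on parts shared with Bysl on the opposite strand. The log2 fold change was 0.45 ± 0.33 (SE), and edgeR's unadjusted p was 0.196. Ccnd2 was scarce throughout. Its counts were 22, 22 and 25 in the control and 0, 0 and 5 in the delipidated libraries, so that 2 delipidated libraries were at 0, where a count of 0 allows up to 3 counts. As it passed the filter through the controls alone, it could differ in 1 direction only. Its log2 fold change of −3.81 ± 1.87 (SE) is thus given as a description. Without delipidated replicate 3 the fitted value was −7.73, but that group is at 0 counts, so the value measures no size. In delipidated replicates 1 and 2, 3 counts would be 0.148 and 0.184 CPM, against 1.33 to 1.90 CPM in the controls. The counts of Ccnd2 came from 2 or fewer of its 20 parts in each library, and 97.3% of them lay on parts that overlap 9330179D12Rik or Gm43126 on the opposite strand. The strand setting of the counting is not given in the sources used here, so transcripts of Ccnd2 and of these neighbours cannot be told apart. The summed level of the stromal markers described further on was likewise higher in all 3 controls, though not that of each marker, and their part in the value of Ccnd2 was not tested. Ccnd1 had 3.29, 23.9 and 8.36 CPM in the control and 8.74, 10.4 and 4.38 CPM in the delipidated libraries, with control replicate 2 far above the rest and 57.2% of its counts on parts shared with the opposite strand.

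Of the 4 cyclin-dependent kinases, Cdk1, the kinase that drives entry into mitosis, had 250, 279 and 311 CPM in the control and 294, 326 and 248 CPM in the delipidated libraries. The groups overlapped over nearly their whole ranges, and the log2 fold change was 0.05 ± 0.19 (SE). Per kb over all parts, Cdk1 exceeded Cdk2 3.00-fold to 7.90-fold and Cdk4 13.5-fold to 43.1-fold in the 6 libraries. Over coding parts it exceeded Cdk2 7.18-fold to 17.6-fold and Cdk4 19.1-fold to 43.7-fold. Of the counts of Cdk4, 13.9% lay on parts shared with Tspan31 on the opposite strand. Cdk2 had 58.8, 40.3 and 61.4 CPM in the control and 26.3, 40.2 and 47.7 CPM in the delipidated libraries. Delipidated replicate 1 was the lowest for Cdk2 and 2 controls were the highest, but control replicate 2 lay inside the delipidated range. The log2 fold change of Cdk2 was −0.49 ± 0.33 (SE; edgeR, unadjusted p = 0.166). Cdk6 was counted at 41, 186 and 18 in the control and 0, 50 and 44 in the delipidated libraries, and its log2 fold change was −1.38 ± 1.33 (SE), or −0.23 without control replicate 2, its highest library.

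The 5 genes of the phosphorylation switch were led by Wee2, a Wee1 family kinase known from oocytes, where it keeps Cdk1 inactive. Wee2 (ENSMUSG00000037159, forward strand, GRCm38 chr6:40439088-40466813) had 892, 543 and 869 CPM in the control and 691, 728 and 969 CPM in the delipidated libraries. Control replicate 2 was the lowest and delipidated replicate 3 the highest, so that the groups overlapped, while control replicates 1 and 3 lay above delipidated replicates 1 and 2. The log2 fold change was 0.05 ± 0.22 (SE), and 0.649% of all genes tested had a higher level per kb than Wee2. Wee1, the form used by somatic cells, had 54.0, 39.7 and 58.9 CPM in the control and 38.0, 42.7 and 42.4 CPM in the delipidated libraries, and its log2 fold change was −0.31 ± 0.29 (SE).

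Ratios between related genes were formed per kb within each library, for pairs chosen after the data were seen. The ratio of Wee2 to Wee1 was 18.0, 14.9 and 16.1 in the control and 19.8, 18.6 and 24.9 in the delipidated libraries. The delipidated libraries all lay above the controls, the closest pair being delipidated replicate 2 and control replicate 1. The exact two-sided permutation p was 0.1, the smallest this design allows, and 0.68 after Benjamini-Hochberg adjustment over the 17 ratios between related genes that were compared. The ratio of Cdc25c to Cdc25a was the other one of the 17 whose groups did not overlap, with 10.9, 5.69 and 5.37 in the control and 4.58, 4.52 and 3.29 in the delipidated libraries and the same p-values. In this design any ratio without overlap has a permutation p of 0.1. As the pairs were chosen after the data were seen, these p-values are given as a description only. Over coding parts the groups still did not overlap for Wee2 to Wee1 but overlapped for Cdc25c to Cdc25a.

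Among the Cdc25 phosphatases, which reverse the action of the Wee1 kinases, Cdc25c had the highest level at 53.8 CPM per kb, against 16.0 for Cdc25b and 10.4 for Cdc25a over all parts. Over coding parts Cdc25c was also the highest, but Cdc25a at 33.8 CPM per kb lay above Cdc25b at 19.0. Cdc25a, which acts at entry into S phase and into mitosis, had 45.2, 77.6 and 87.9 CPM in the control and 84.1, 98.5 and 108 CPM in the delipidated libraries. Control replicate 3 lay above the lowest delipidated library, and control replicate 1 was far below the others. Its log2 fold change was 0.46 ± 0.29 (SE; edgeR, unadjusted p = 0.140) and was 0.24 without control replicate 1. Cdc25b varied widely, from 30.9 to 70.9 CPM in the control and from 29.2 to 97.0 CPM in the delipidated libraries.

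All 5 mitotic kinases had positive log2 fold changes, from 0.01 for Plk4 to 0.87 for Aurkb, with a median of 0.21, although none passed the test and Plk1, Plk4 and Aurkc turned negative when single libraries were left out, Plk4 also under 2 other settings. Aurka, which acts at the spindle poles, had the highest level of the group over all parts at 63.9 CPM per kb and was measured at 126, 199 and 118 CPM in the control and 221, 168 and 139 CPM in the delipidated libraries. The highest control lay above 2 of the delipidated libraries, and the log2 fold change was 0.25 ± 0.27 (SE). Plk4, the kinase of centriole duplication, and Plk1, which acts throughout mitosis, had levels of 61.6 and 59.7 CPM per kb over all parts, where neither was the higher one in all libraries. Over coding parts Plk4, at 130 CPM per kb against 78.5 for Aurka and 60.4 for Plk1, was the highest of the 5 and exceeded Plk1 in all 6 libraries.

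Aurkb (ENSMUSG00000020897, forward strand, GRCm38 chr11:69045647-69051664) encodes the kinase of the chromosomal passenger complex, which corrects faulty attachments of chromosomes. It had 28.8, 41.7 and 27.5 CPM in the control and 93.6, 60.1 and 25.8 CPM in the delipidated libraries. Delipidated replicates 1 and 2 lay above all controls, whereas delipidated replicate 3 was the lowest of the 6 libraries. The log2 fold change was 0.87 ± 0.43 (SE), with a 95% interval from −0.07 to 1.82 (edgeR, unadjusted p = 0.0658, adjusted p = 1.00). It was 0.40 without delipidated replicate 1 and 1.23 without delipidated replicate 3. The ratio of Aurka to Aurkb per kb over all parts accordingly was 5.09, 5.55 and 4.99 in the control and 2.75, 3.25 and 6.26 in the delipidated libraries. Over coding parts it was 3.01, 2.99 and 2.80 in the control and 1.47, 1.63 and 4.20 in the delipidated libraries. On both scales delipidated replicate 3 lay on the other side of the controls from replicates 1 and 2. Aurkc, the paralogue of Aurkb known from meiosis, had 48.4, 37.6 and 41.3 CPM in the control and 28.3, 75.3 and 43.3 CPM in the delipidated libraries, with replicate 2 highest and replicate 1 lowest. For its partners in that complex the log2 fold change was −0.09 for Birc5, 0.05 for Incenp and −0.13 for Cdca8, with standard errors of 0.24, 0.19 and 0.16.

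The spindle checkpoint genes had levels between 5.50 CPM per kb for Bub3 and 23.8 CPM per kb for Bub1b over all parts. Ttk (ENSMUSG00000038379, forward strand, GRCm38 chr9:83834689-83872389), the kinase that starts checkpoint signalling at unattached kinetochores, had 89.9, 87.4 and 77.5 CPM in the control and 98.0, 103 and 154 CPM in the delipidated libraries. All delipidated libraries were higher, with delipidated replicate 3 well above the others. The log2 fold change was 0.48 ± 0.25 (SE; edgeR, unadjusted p = 0.0847, adjusted p = 1.00), and it was 0.24 without delipidated replicate 3. Bub1b had 85.6, 116 and 87.0 CPM in the control and 126, 105 and 91.6 CPM in the delipidated libraries, and the log2 fold change was 0.16 ± 0.25 (SE). The groups overlapped for Bub1b, as they did for Bub1, Bub3 and Mad2l1, whose log2 fold changes were −0.25, −0.36 and 0.04.

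Of the regulators of the anaphase-promoting complex, Cdc20, its activator in mitosis, had 92.5, 178 and 108 CPM in the control and 134, 141 and 102 CPM in the delipidated libraries. Control replicate 2 was the highest library, and the log2 fold change was −0.01 ± 0.28 (SE). Fzr1, which activates the complex in late mitosis and G1, was lower than Cdc20 per kb in all 6 libraries. The factor was 4.88 to 17.6 over all parts and 1.87 to 7.28 over coding parts. Fzr1 had 45.6, 35.7 and 50.0 CPM in the control and 18.3, 32.3 and 36.4 CPM in the delipidated libraries. Only delipidated replicate 3 exceeded the lowest control, and the log2 fold change was −0.59 ± 0.36 (SE; edgeR, unadjusted p = 0.124). The inhibitor Fbxo5, also known as Emi1, had a tight control group of 99.2, 92.8 and 98.4 CPM against 102, 79.4 and 137 CPM in the delipidated libraries.

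All 9 replication licensing genes had intervals between −1 and 1. Their log2 fold changes ran from −0.27 to 0.13, with 7 of 9 negative and a median of −0.18, and none passed the test, while Mcm2 and Mcm6, the positive ones, and Mcm3 and Mcm4 each crossed 0 when single libraries were left out. Gmnn, which encodes the inhibitor geminin that blocks renewed licensing, had 287, 313 and 328 CPM in the control and 325, 216 and 233 CPM in the delipidated libraries. Delipidated replicates 2 and 3 lay below all controls and replicate 1 within their range, and the log2 fold change was −0.26 ± 0.21 (SE; edgeR, unadjusted p = 0.233). Gmnn exceeded Cdt1, the loading factor it binds, 4.07-fold to 6.88-fold per kb. The 6 subunits of the MCM helicase, Mcm2 to Mcm7, had levels of 28.0 to 53.8 CPM per kb over all parts, with Mcm6 highest and Mcm5 lowest, whereas over coding parts Mcm2 was highest at 73.7 and Mcm4 lowest at 33.9 CPM per kb. Mcm3 was the most even of them, with 157, 170 and 153 CPM in the control and 170, 156 and 143 CPM in the delipidated libraries. All counts of Mcm7 came from parts listed under a joint identifier with another gene. Only parts that overlapped exons of Mcm7 alone among the joined genes were used, so its level may miss shared parts.

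Pcna, the sliding clamp of the replication fork, had 153, 163 and 171 CPM in the control and 116, 96.9 and 187 CPM in the delipidated libraries. Delipidated replicates 1 and 2 lay below all controls and delipidated replicate 3 above them, and the log2 fold change was −0.28 ± 0.26 (SE; edgeR, unadjusted p = 0.302). Without delipidated replicate 3, a library picked after the values were seen, it was −0.61, so no test is given for that value. Top2a, the topoisomerase that untangles chromosomes before anaphase, was at 53.8 CPM per kb with a log2 fold change of −0.13, and all of its counts also came from jointly listed parts. Kif11, the motor that pushes spindle poles apart, had 182, 326 and 244 CPM in the control and 320, 169 and 171 CPM in the delipidated libraries. The highest library of each group was nearly as high as that of the other, and the log2 fold change was −0.19 ± 0.30 (SE).

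**Figure D3:**
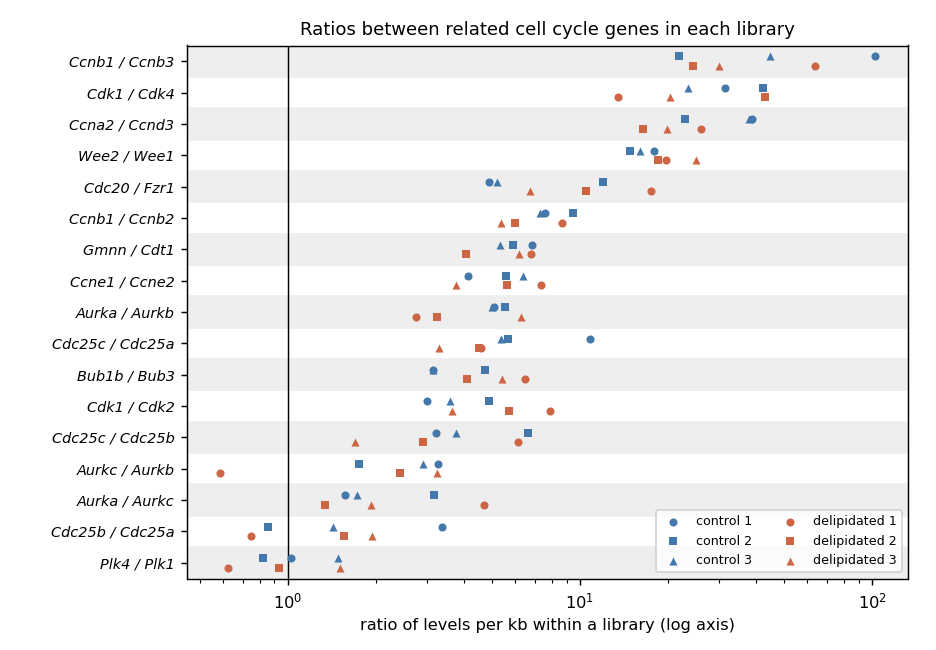
Ratios of levels per kb, over all exonic parts, between pairs of related cell cycle genes within each library, on a log axis with a line at 1, control in blue and delipidated in orange and the symbol shape giving the replicate. Wee2 exceeds Wee1 by 14.9-fold to 24.9-fold and Ccnb1 exceeds Ccnb3 by 21.8-fold to 102.5-fold in the 6 libraries, whereas Plk4 to Plk1, Cdc25b to Cdc25a and Aurkc to Aurkb lie on both sides of 1.

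The libraries differed among themselves in a pattern that did not follow the groups. The median coefficient of variation of the 44 genes was 18.7% over the control and 22.1% over the delipidated libraries, against 36.9% and 42.1% over all genes tested and 28.0% and 32.0% over the genes with a mean count of at least 50. Delipidated replicate 3 was the highest library for 11 of the 44 genes, among them Wee2, Plk4, Mad2l1, Ttk and Pcna, and the lowest for 9, among them Ccna2, Ccne1, Cdk1 and Bub1. Delipidated replicate 1 was the highest for 8, among them Ccne1, Aurka, Aurkb and Plk1, and the lowest for 9, among them Plk4, Cdk2 and Fzr1. Control replicate 2 was the lowest library for Wee2, Mad2l1 and Mcm4 and the highest for Cdc20, Mcm6, Top2a and Kif11. The summed level of the 44 genes differed little between libraries, with 7033, 7107 and 7387 CPM in the control and 7233, 6764 and 7283 CPM in the delipidated libraries.

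The summed level of oocyte markers had the same lowest and highest library as Wee2, although most single markers did not. Of the 15 oocyte genes, 14 passed the filter on low counts and none was at 0 in all libraries. Their sum was 3678, 2131 and 3461 CPM in the control and 2475, 2884 and 3986 CPM in the delipidated libraries, and Btg4, a factor of maternal mRNA decay, was the most abundant with 1971, 901 and 1749 CPM in the control and 1084, 1256 and 1969.9 CPM in the delipidated libraries. Control replicate 2 was the lowest and delipidated replicate 3 the highest library for this sum and for Wee2, and the groups overlapped. The part of oocyte transcripts in the values of Wee2, Plk4 and Mad2l1 was not tested.

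Markers of other cell types were lower than those of the oocyte. Of 9 stromal genes, 5 passed the filter, and their sum was 27.3, 20.6 and 55.8 CPM in the control and 1.93, 3.99 and 6.35 CPM in the delipidated libraries. The groups did not overlap in this sum, but genes that pass the filter through the controls alone, as Vim and Col1a1 did, could differ in 1 direction only, so no test is given. Vim was the most abundant in control replicates 1 and 2 and Sparc in control replicate 3, and Vim, Col1a1, Col3a1, Pdgfrb and Lum were at 0 in all 3 delipidated libraries. Dcn, in contrast, was at 0 in all 3 controls and had 27 counts in delipidated replicate 3, and Col1a2 was higher in delipidated replicate 3 than in 2 of the controls. Of 13 cumulus and granulosa cell genes, Foxl2 and Ptx3 were at 0 in all 6 libraries, and the list summed to 20.2, 28.5 and 82.3 CPM in the control and 11.3, 33.4 and 18.4 CPM in the delipidated libraries, with Amhr2 and, in control replicate 3, Cyp11a1 at 49.6 CPM, all on jointly listed parts, the most abundant. The 9 leukocyte genes summed to 16.0, 11.1 and 10.6 CPM in the control and 7.01, 5.16 and 12.6 CPM in the delipidated libraries, and none was at 0 in all of them. The most abundant on average was Csf1r, with 95.6% of its counts on parts shared with the opposite strand, so that its level is uncertain. Cd74 followed, with all counts on jointly listed parts that could be assigned to it, so that its level may miss shared parts. The 8 genes of oviduct epithelium summed to 217, 390 and 257 CPM in the control and 245, 293 and 188 CPM in the delipidated libraries, of which Epcam and Cdh1, both also known from early embryos, made up most, while Foxj1 and Pax8 had at most 1.41 CPM in any library. Cdh1 had 125, 140 and 133 CPM in the control and 70.3, 88.6 and 73.8 CPM in the delipidated libraries, without overlap, and its log2 fold change was −0.78 ± 0.23 (SE; edgeR, unadjusted p = 0.00532, adjusted p = 1.00). The D-type cyclins and Cdk6, which are used by many somatic cells, were at 1.33 to 37.5 CPM in the control libraries, and the part of somatic RNA in their values was not tested.

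The same comparison was made for 148 other genes of these pathways, of which 143 passed the filter and Cdkn2a, Cdkn2b, Ccna1, Rad21l and E2f3 did not. By edgeR's test 0 of the 143 were called in either direction, and DESeq2's Wald test called 0 as well. Of these, an unadjusted p under 0.05 was found with edgeR for 1 higher and 2 lower genes, against the 1.15% and 1.74% of all genes, and with DESeq2 for 6 genes, against its 1.41% higher and 2.92% lower of all genes with a count. The groups did not overlap for 7 higher and 8 lower of the 143 genes, against 3.81% and 5.05% of all genes tested, and the median log2 fold change was −0.00088. The interval lay between −1 and 1 for 83 genes, including all 15 genes of the spindle and cytokinesis.

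Mnat1, the assembly factor of the kinase that activates cyclin-dependent kinases, was the higher one, with 8.02, 18.0 and 11.9 CPM in the control and 21.6, 31.8 and 24.8 CPM in the delipidated libraries. Its groups did not overlap, and its log2 fold change was 1.04 ± 0.43 (SE; edgeR, unadjusted p = 0.0340, adjusted p = 1.00). Its partners in that kinase, Cdk7 and Ccnh, had log2 fold changes of −0.44 and −0.56 with standard errors of 0.34 and 0.68. The delipidated libraries of Cdk7 lay below its controls, and 24.1% of the counts of Ccnh lay on parts shared with the opposite strand. Lin52, a subunit of the DREAM and MuvB complexes, had 6.92, 17.1 and 23.6 CPM in the control and 6.52, 2.40 and 5.01 CPM in the delipidated libraries, with a log2 fold change of −1.77 ± 0.62 (SE; edgeR, unadjusted p = 0.0151, adjusted p = 1.00). The lowest control of Lin52 lay just above the highest delipidated library. Anapc4, a subunit of the anaphase-promoting complex, had 58.9, 111 and 71.5 CPM in the control and 43.9, 49.2 and 57.5 CPM in the delipidated libraries, and its log2 fold change was −0.68 ± 0.31 (SE; edgeR, unadjusted p = 0.0458, adjusted p = 1.00).

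The other lists gave no gene at an unadjusted p under 0.05, and each is described by its 2 smallest p-values and its highest level over all parts. Among the inhibitors of cyclin-dependent kinases, 5 of 7 passed the filter, and the highest level was 10.5 CPM per kb for Cdkn2d. Cdkn1c and Cdkn2c had log2 fold changes of 0.96 and 1.07 with standard errors of 0.57 and 0.69. Of the counts of Cdkn1c, 43.3% lay on parts shared with the opposite strand. For the SCF ubiquitin ligase, which degrades regulators of G1 and S phase, Cul1 had the highest level of all lists at 364 CPM per kb, and Skp2 and Fbxw11 had log2 fold changes of 0.45 and −0.37. For replication origins and forks, Cdc45 and Dbf4 were highest, both at 126 CPM per kb, with Dbf4 above Cdc45 in 3 of the 6 libraries, and Mcm10 and Rpa2 had log2 fold changes of 0.47 and −0.52. Cohesin and condensin genes were led by the cohesin release factor Wapl at 300 CPM per kb, and Stag3 and Smc2 had log2 fold changes of 0.57 and 0.64. Incenp at 184 CPM per kb was the highest kinetochore gene, with log2 fold changes of −0.62 for Mad1l1 and −0.26 for Ndc80.

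Among genes of the spindle and of cytokinesis, Tpx2, an activator of Aurora A, was highest at 126 CPM per kb, and Nusap1 and Anln had log2 fold changes of 0.43 and 0.34 with groups that did not overlap. In the RB, E2F and DREAM list, which holds the regulators of cell cycle transcription, E2f5 was highest at 348 CPM per kb and E2f4 followed at 171 CPM per kb. Both exceeded E2f1, an activator at 53.1 CPM per kb, while E2f3 did not pass the filter. E2f4 and E2f1 were chosen for comparison after their values were seen. Tfdp1, the partner of E2F factors, had the smallest p of that list after Lin52, with a log2 fold change of −0.38. In the 2 lists with a gene under 0.05 not yet described, Cks2 was highest among other regulators of cyclin-dependent kinases at 286 CPM per kb, and Ube2c, which primes ubiquitin chains, among genes of the anaphase-promoting complex at 90.7 CPM per kb. Anapc11, the catalytic subunit of that complex, had a log2 fold change of −0.87 ± 0.41 (SE).

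The promoters were searched for motifs, which the choice of the genes did not use. RefSeq promoters of GRCm38.p6, from 250 bases before to 50 bases after the start, were at hand for 35 of the 44 genes, with 38 promoters in all. The letters of the cell cycle homology region (TTTGAA or TTCGAA, on either strand) were found in 42.1% of the 38 promoters and in 19.2% of 32851 promoters of all genes. The letters CCAAT, on either strand, were found in 73.7% against 37.4%, and all 16 promoters with the first motif also held CCAAT, which gives 42.1% with both against 7.52%. The promoters listed for Bub3 overlap and hold the same copies of both motifs. Counted by gene, both motifs were found for 15 of 35. The letters of an E2F site (TTTGGCGC, TTTCCCGC, TTTCGCGC, TTTGCCGC, TTTGGCGG or TTTCCCGG, on either strand, where matches on opposite strands can overlap) were found in 26.3% against 3.98%. The cell cycle homology letters were found for many genes of mitosis, such as Plk1, Aurka, Bub1, Ttk, Cdc20 and Top2a, but not for Ccnb1, Birc5 or Aurkc. They were also found for Mcm2 and Mcm7, and the E2F letters for Mcm3, Mcm5, Mcm6, Mcm7, Cdc6 and Cdt1 of the licensing genes. None of the 3 motifs was found for Plk4, Mad2l1, Ccne1, Cdk4, Cdk6 and Ccnb3. A match describes these letters only, not binding.

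Levels and fold changes were also set out by motif. The median level was 36.1 CPM per kb for the 15 genes with the cell cycle homology letters and 29.0 CPM per kb for the 20 without, and the median log2 fold changes were 0.09 and 0.01. For the 10 genes with E2F letters and the 25 without, the median log2 fold changes were −0.14 and 0.06. These differences were not tested. Promoters are printed 5′ to 3′ on the strand of the gene with the 3 motifs in capitals, for Cdk1, which holds all 3 motifs, for Ttk, whose groups did not overlap, for Mcm6, which holds overlapping E2F letters on both strands, and for Wee2, which had the highest level over all parts and holds CCAAT alone. They lie at chr10:69352863-69353162 on the reverse strand for Cdk1, chr9:83834439-83834738 on the forward strand for Ttk, chr1:128359656-128359955 on the reverse strand for Mcm6 and chr6:40442613-40442912 on the forward strand for Wee2.
Cdk1: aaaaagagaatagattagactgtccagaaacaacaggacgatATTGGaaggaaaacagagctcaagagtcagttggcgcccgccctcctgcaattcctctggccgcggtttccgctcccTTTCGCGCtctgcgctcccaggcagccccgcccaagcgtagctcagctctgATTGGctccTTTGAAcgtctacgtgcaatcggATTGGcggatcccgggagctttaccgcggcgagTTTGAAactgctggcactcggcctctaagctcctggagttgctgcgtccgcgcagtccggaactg
Ttk: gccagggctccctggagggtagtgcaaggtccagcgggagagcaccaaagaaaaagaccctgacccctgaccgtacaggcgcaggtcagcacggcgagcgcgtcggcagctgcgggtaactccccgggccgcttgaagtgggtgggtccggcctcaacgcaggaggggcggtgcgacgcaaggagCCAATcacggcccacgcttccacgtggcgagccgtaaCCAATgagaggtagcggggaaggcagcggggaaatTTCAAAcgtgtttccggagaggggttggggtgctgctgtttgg
Mcm6: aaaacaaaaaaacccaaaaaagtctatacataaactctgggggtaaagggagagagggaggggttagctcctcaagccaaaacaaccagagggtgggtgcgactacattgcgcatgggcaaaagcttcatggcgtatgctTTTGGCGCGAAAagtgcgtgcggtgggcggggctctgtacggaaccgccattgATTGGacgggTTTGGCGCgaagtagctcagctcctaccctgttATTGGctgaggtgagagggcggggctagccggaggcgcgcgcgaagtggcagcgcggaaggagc
Wee2: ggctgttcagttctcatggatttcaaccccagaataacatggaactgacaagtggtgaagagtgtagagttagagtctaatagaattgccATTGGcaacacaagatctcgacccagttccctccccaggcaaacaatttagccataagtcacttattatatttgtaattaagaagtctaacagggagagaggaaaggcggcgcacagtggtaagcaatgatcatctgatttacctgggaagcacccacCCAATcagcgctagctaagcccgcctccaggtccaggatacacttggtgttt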

How the data were processed

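The authors counted unique reads within exons with featureCounts after Trimmomatic 0.36 and STAR 2.5.2b, and the deposited files hold raw counts per exonic part on GRCm38 (mm10). These counts were summed per gene, with parts under joined identifiers assigned where a single gene could be told from the GENCODE annotation, which left out 2.49% to 2.57% of the counts. Reads across the border of 2 parts may thus count more than 1 time. Genes were kept by filterByExpr (minimum count 10, minimum total 15), scaled by TMM and tested with edgeR 4.0.16 (glmQLFTest, R 4.3.3). Alternatives were DESeq2 1.42.0, other filters (none, or 50 counts on average), a replicate block, each library left out, and other choices of parts. Standard errors were derived from the F statistic and 95% intervals from the t distribution; they cover the spread between libraries. Values per library are given for members with groups that did not overlap and for the highest level and smallest p of each role, and for further members chosen after their values were seen. From each pathway list come the 2 smallest p-values and the highest level. The members and lists were chosen with earlier results of these data known. Tables were made with Python 3.11.15.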

Additional observations from a re-analysis of the deposited data

How the results depend on the processing

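Under 15 other settings, 611 of 656 log2 fold changes of the 44 genes kept their sign, and 45, of 25 genes, did not, of which 34 arose when a library was left out. The smallest adjusted p of any of the 44 in any setting was 0.595. DESeq2 without a filter called 9 genes higher and 40 lower over all genes. At an unadjusted p under 0.05 it had 2 of the 44 and 6 pathway genes, against 1.41% higher and 2.92% lower of all genes with a count. EdgeR without a filter called 5 higher and 25 lower, with 1 of the 44, Aurkb, and 7 pathway genes at an unadjusted p under 0.05. In these settings the median log2 fold change over all genes was −0.171 and −0.175. The share of all genes at that p is not given for edgeR without a filter, so its counts are not read as a result.

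The replicate number was also used as a block, although the labels state no pairing. The correlations between same-numbered libraries were −0.0836, 0.0698 and 0.0428. With this block 0 of the 44 were called by edgeR, and 2 pathway genes had an unadjusted p under 0.05. Ccnb1 was then at −0.0024, Plk4 at −0.025 and Cdc20 at 0.037. With the part holding the most counts of each gene, 1 of the 44 had an unadjusted p under 0.05. Ccne1 was then at −0.0097, Cdk4 at −0.60, Cdc25c at 0.069, Plk4 at −0.14, Bub1b at −0.012, Mad2l1 at −0.077, Mcm3 at 0.036 and Top2a at 0.11. The shares of all genes at that p are not given for these settings, so the counts are not read as results.

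When each library was left out in turn, 0 to 3 of the 44 and 1 to 10 pathway genes had an unadjusted p under 0.05. The shares of all genes in these fits are not given, so the counts are not read as results. The median of the 44 ranged from −0.086 to −0.00097. The log2 fold changes that crossed 0 ranged from −0.14 to 0.14 for Ccnb1, −0.20 to 0.84 for Ccnb3, −1.04 to 0.43 for Ccnd1, −0.11 to 0.20 for Ccne1, −0.087 to 0.13 for Ccne2, −0.049 to 0.15 for Cdk1, −0.085 to 0.66 for Cdc25b and −0.14 to 0.19 for Wee2. They ranged from −0.0093 to 0.28 for Plk1, −0.33 to 0.18 for Plk4, −0.25 to 0.48 for Aurkc, −0.51 to 0.018 for Bub1, −0.26 to 0.21 for Mad2l1, −0.18 to 0.33 for Cdc20 and −0.10 to 0.30 for Fbxo5. For the remaining genes they ranged from −0.048 to 0.20 for Mcm2, −0.096 to 0.024 for Mcm3, −0.32 to 0.017 for Mcm4, −0.040 to 0.39 for Mcm6, −0.56 to 0.051 for Kif11 and −0.27 to 0.021 for Birc5. The cause was not tested.

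Mcm7 and Top2a gave no value without jointly listed parts, nor Ccnd2 at a mean count of at least 50 or without parts on the opposite strand. The intervals reflect the spread between 3 pools in each group, and for genes such as Ccnd2 and Aurkb they include large changes.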
